A study of Mus musculus with 12 samples.

Results

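The red cell and heme genes measured in left ventricle were 8 genes: the adult globin genes Hba-a1, Hba-a2, Hbb-bs and Hbb-bt, the heme synthesis genes Alas2, Alas1 and Fech, and the red cell anion exchanger gene Slc4a1. They were taken by name from the 29564 genes of the counts table. In GENCODE M21 (GRCm38) they lie at chr11:32283511-32284465 (Hba-a1), chr11:32296489-32297298 (Hba-a2), chr7:103826534-103828096 (Hbb-bs), chr7:103812524-103813996 (Hbb-bt), chrX:150547375-150570638 (Alas2), chr11:102348824-102366203 (Slc4a1) and chr9:106233455-106248654 (Alas1), with Fech on chromosome 18. They were chosen with their levels in these libraries already known, and selected on those levels, so these are given as a description, with no test.

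Polyadenylated RNA was sequenced from left ventricles of 12 wild-type C57BL6 mice, with 1 library per mouse and 4 per group. The published methods name the substrain as C57BL/6J. Control + Veh mice were non-failing and received vehicle (libraries C1 to C4). HFpEF + Veh mice (V1 to V4) were made to model HFpEF (heart failure in which the ejection fraction is preserved) with a high-fat diet (HFD) and L-NAME, an inhibitor of nitric oxide synthase, and received the same vehicle. HFpEF + TYA-018 mice (T1 to T4) had the same model and received TYA-018, which inhibits the deacetylase HDAC6, at an oral dose of 15 mg/kg. The model thus rests on diet and a drug and not on a genetic change. The series title names a single dose, while the labels' treatment protocol has dosing every day for weeks, and in the paper's account the hearts were collected some hours after a dose given once. The labels give no age or sex, while the published methods name the C57BL/6J mice as male and give their age at purchase. The sources used here do not say whether blood was washed out of the hearts. The animal numbers of a group lay together, so cage, date or order of handling cannot be told apart from the group.

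Hemoglobin is a tetramer of alpha chains (from Hba-a1 and Hba-a2) and beta chains (from Hbb-bs and Hbb-bt), each holding a heme. Heme is made in steps that begin with 5-aminolevulinate synthase, encoded by Alas2 in erythroid cells and by Alas1 elsewhere, and end with ferrochelatase (Fech), which puts iron into the ring. Red cells lose their nucleus but leave the bone marrow as reticulocytes, which still hold messenger RNA, so a tissue that contains blood also contains globin transcripts. Cardiac muscle makes heme of its own for cytochromes and myoglobin. In a bulk sample, fewer cells of a type and less RNA per cell cannot be told apart.

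The members differ in the sequence before their start sites, and the nearly identical globin copies limit how reads could be split between them. The first set shows the 250 bases before the RefSeq start (GRCm38.p6), 5′ to 3′, for 4 erythroid members and for Alas1. It is shown because it sets the promoters of erythroid members beside that of the gene used in all tissues. Capitals mark 3 short motifs on either strand: GATAA (or TTATC), bound by GATA factors, CACCC (or GGGTG), bound by erythroid KLF proteins among others, and CCAAT (or ATTGG), bound by NF-Y.
Hba-a1, chr11:32283422-32283671, plus strand: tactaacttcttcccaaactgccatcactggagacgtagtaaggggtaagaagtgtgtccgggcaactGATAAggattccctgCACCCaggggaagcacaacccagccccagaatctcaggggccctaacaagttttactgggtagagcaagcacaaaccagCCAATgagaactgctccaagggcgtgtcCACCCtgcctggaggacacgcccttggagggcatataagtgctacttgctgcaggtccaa
Hbb-bs, chr7:103827929-103828178, minus strand: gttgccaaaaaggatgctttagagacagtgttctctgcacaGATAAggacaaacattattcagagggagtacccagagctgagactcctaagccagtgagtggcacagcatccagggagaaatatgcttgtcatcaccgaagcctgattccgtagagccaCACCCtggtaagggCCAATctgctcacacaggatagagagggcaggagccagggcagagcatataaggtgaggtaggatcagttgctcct
Hbb-bt, chr7:103813924-103814173, minus strand: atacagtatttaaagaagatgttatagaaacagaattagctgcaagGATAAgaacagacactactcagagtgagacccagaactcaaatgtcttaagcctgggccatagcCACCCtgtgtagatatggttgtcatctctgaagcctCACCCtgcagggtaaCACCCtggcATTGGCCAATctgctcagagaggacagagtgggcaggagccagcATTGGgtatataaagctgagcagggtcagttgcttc
Alas2, chrX:150547167-150547416, plus strand: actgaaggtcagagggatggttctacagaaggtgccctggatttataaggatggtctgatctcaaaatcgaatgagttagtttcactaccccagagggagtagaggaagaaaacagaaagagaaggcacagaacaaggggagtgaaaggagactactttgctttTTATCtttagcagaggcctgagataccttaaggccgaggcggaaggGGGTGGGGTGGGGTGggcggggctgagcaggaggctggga
Alas1, chr9:106247955-106248204, minus strand: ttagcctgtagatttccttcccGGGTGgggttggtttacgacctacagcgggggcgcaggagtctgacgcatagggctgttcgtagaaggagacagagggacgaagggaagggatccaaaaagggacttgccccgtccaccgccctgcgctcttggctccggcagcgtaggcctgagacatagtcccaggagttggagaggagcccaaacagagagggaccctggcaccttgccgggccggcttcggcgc

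A GATAA motif was present once in each of Hba-a1, Hbb-bs, Hbb-bt and Alas2, and in neither of the 2 Alas1 windows that RefSeq gives. Of 32851 mouse promoters of the same length, 22.6% held a GATAA, 52.0% a CACCC, 33.8% a CCAAT and 3.45% all 3. All 3 motifs were in the Hba-a1, Hbb-bs and Hbb-bt windows, whereas Alas2 had no CCAAT and its 3 CACCC matches, read on the opposite strand, followed directly on each other. The Alas1 windows had a GC content of 62.4% and 74.4%, against 54.0% for Hba-a1, 47.2% for Hbb-bt and a median of 52.4% over all promoters. The full RefSeq promoter sequence of Hba-a2, which extends past the window of 250 bases, was identical to that of Hba-a1 over 297 of 297 compared bases once shifted by 3. The Hba-a2 window is therefore not printed. A promoter was matched for 6 of the 8 members. GENCODE M21 annotates transcripts of these genes that start further upstream, inside the windows or before them. A match of letters is a description and not a binding site.

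The coding sequences of the paired globin genes differ by a single base. It is shown here because a read that lies within the coding sequence and misses this base cannot tell the copies apart. The windows are 29 coding bases from GENCODE M21 transcripts (GRCm38), with positions counted from 1 at the A of the start codon and the base that differs in capitals.
Hba-a1, coding bases 367 to 395: catgcctctctggaCaaattccttgcctc
Hba-a2, coding bases 367 to 395: catgcctctctggaTaaattccttgcctc
Hbb-bs, coding bases 403 to 431: gtggctggagtggcCgctgccctggctca
Hbb-bt, coding bases 403 to 431: gtggctggagtggcTgctgccctggctca

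Between Hba-a1 and Hba-a2 the difference was C381T over 429 coding bases, and between Hbb-bs and Hbb-bt it was C417T over 444 coding bases. Over whole transcripts, 71.3% of the 31-base words of Hba-a1 and 91.0% of those of Hba-a2 were shared with the other copy. For Hbb-bs and Hbb-bt the shares were 66.9% and 59.4%. Alas1 and Alas2 shared 0% of theirs. Levels of the single globin copies therefore depend on how the authors' software divided shared reads, and the sums of the alpha pair and of the beta pair do not.

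Total estimated counts ran from 61177646 to 83928922 per library, and levels are given in CPM (counts per 1000000 counts of the library). Genes encoded in mitochondria took 37.0% to 40.6% of the counts in C1 to C4, 43.1% to 47.7% in V1 to V4 and 35.4% to 41.2% in T1 to T4, so this share was highest in the HFpEF + Veh libraries. The 8 cardiomyocyte markers summed to 27490 to 38574 CPM, 25485 to 27075 CPM and 29092 to 32001 CPM, being lowest in HFpEF + Veh. There 6 of the 8 were called lower and 1 higher against Control + Veh (87.5%, against 21.2% of all tested genes). The part of either in the results was not tested. Leaving mitochondrial and globin genes out of the totals and the scaling left the log2 fold change of Hba-a1 unchanged. It was 1.98 in HFpEF + Veh against Control + Veh and -1.39 in HFpEF + TYA-018 against HFpEF + Veh. The scaling already adjusts the totals, so this cannot decide the question. Without that scaling, on log2 transcripts per 1000000 with a pseudocount of 1, the values were 1.75 and -0.97. With mitochondrial genes left out there, they were 1.93 and -1.22. Of the 5 atrial markers, Sln had at most 5 counts in any library, Myl7 at most 19 and Bmp10 at most 30, whereas Myl4 had 102 to 229 and Nppa, which a stressed ventricle also expresses, 3461 to 14982. Nppa was at -0.77 ± 0.25 (edgeR adjusted p = 0.0458) in HFpEF + Veh against Control + Veh, a call lost without any of 5 libraries. CPM here carry edgeR's TMM scaling (trimmed mean of M values), and log2 fold changes (log2FC) are from edgeR, given ± standard error (SE).

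The alpha globin Hba-a1 was the most abundant member. Its level was 1239, 1229, 859 and 1062 CPM in C1 to C4. In V1 to V4 it was 7335, 3172, 4172 and 2605 CPM, and in T1 to T4 it was 1296, 1812, 1439 and 2032 CPM. Every HFpEF + Veh library lay above every other library, V1 stood highest, and the 4 HFpEF + TYA-018 libraries lay just above the 4 Control + Veh libraries. The log2FC was 1.98 ± 0.28 for HFpEF + Veh against Control + Veh, -1.39 ± 0.28 for HFpEF + TYA-018 against HFpEF + Veh, and 0.58 ± 0.27 for HFpEF + TYA-018 against Control + Veh. The first 2 comparisons share the HFpEF + Veh libraries, so they are not independent of each other, for this gene or any other.

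Hba-a2 had the same order of groups at a lower level. It was at 234, 333, 204 and 245 CPM in C1 to C4, at 1585, 636, 828 and 577 CPM in V1 to V4, and at 275, 407, 330 and 420 CPM in T1 to T4. Its HFpEF + TYA-018 and Control + Veh libraries overlapped. Hba-a1 made up between 78.7% and 84.1% of the alpha globin counts in every library, so the split between the copies hardly moved between groups.

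The beta globin Hbb-bs was at 581, 585, 382 and 515 CPM in C1 to C4, at 4034, 1708, 2125 and 1235 CPM in V1 to V4, and at 490, 682, 633 and 849 CPM in T1 to T4. Hbb-bt was at 166, 141, 90.8 and 124 CPM, then 975, 406, 634 and 308 CPM, then 210, 229, 179 and 227 CPM in the same order. For both beta globins the HFpEF + Veh libraries were above all others on this scale. On deposited TPM (transcripts per 1000000 transcripts, a level per length) this held for Hbb-bs, whereas Hbb-bt was at 138 TPM in V2 and 125 TPM in V4, below T1 at 177 TPM. Hbb-bt was also higher in each HFpEF + TYA-018 library than in each Control + Veh library, while Hbb-bs overlapped between those groups. The log2FC of HFpEF + Veh against Control + Veh was 2.14 ± 0.32 for Hbb-bs and 2.15 ± 0.31 for Hbb-bt, and that of HFpEF + TYA-018 against HFpEF + Veh was -1.78 ± 0.31 and -1.46 ± 0.30.

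Together the 4 globins made up 0.204 ± 0.037% of all counts in C1 to C4, 0.770 ± 0.397% in V1 to V4 and 0.296 ± 0.042% in T1 to T4 (SD, n = 4). V1 alone reached 1.32%. Beta globin counts per alpha globin count, which the split between copies does not touch, were 0.477 ± 0.027 in C1 to C4, 0.538 ± 0.036 in V1 to V4 and 0.438 ± 0.020 in T1 to T4. In every library alpha globin counts were thus the larger, and V4, at 0.485, fell among the Control + Veh values of 0.445 to 0.507. Effective lengths of the globins changed between libraries, from 597 to 909 bases for Hbb-bt, beyond its longest annotated transcript of 703 bases in part, so ratios per length were not formed.

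**Figure D1:**
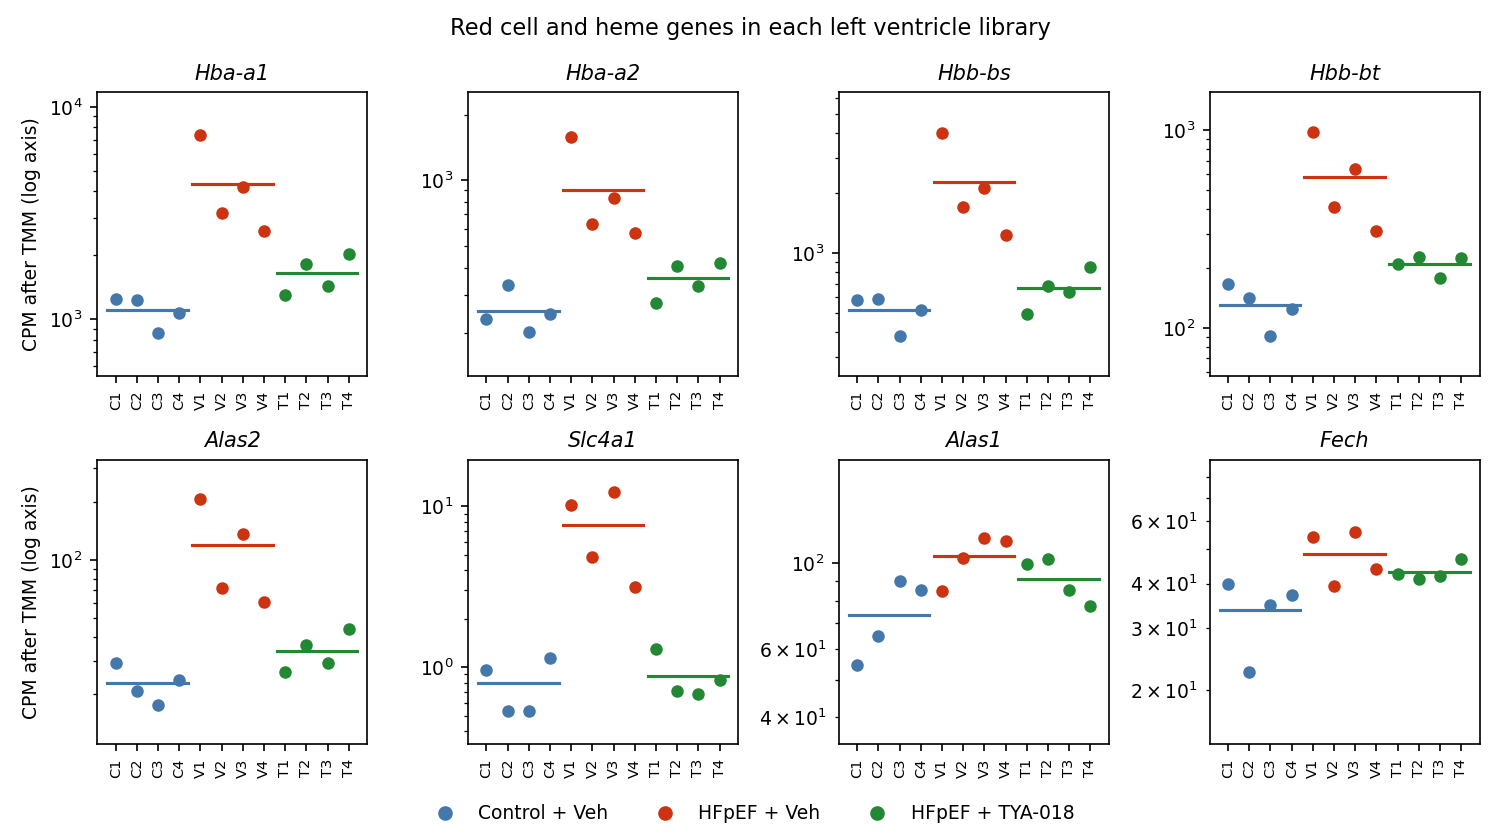
Level of each of the 8 genes in each library, as CPM after TMM on a log axis, with a point per library and a line at the mean of each group of 4. For the 4 globins, Alas2 and Slc4a1 all HFpEF + Veh points lie above all others, while the groups overlap for Alas1 and Fech.

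Alas2, the erythroid first enzyme of heme synthesis, followed the globins. It was at 29.2, 20.8, 17.7 and 23.7 CPM in C1 to C4, at 209, 71.3, 137 and 60.5 CPM in V1 to V4, and at 26.2, 36.1, 29.1 and 43.6 CPM in T1 to T4. The HFpEF + Veh libraries stood clear of the rest on this scale, with V1 highest and V4 lowest, as for the globins. On deposited TPM, V4 was at 11.6 TPM, above C1 to C4 but below T1 to T4 (11.8 to 16.8 TPM). The log2FC was 2.38 ± 0.35 for HFpEF + Veh against Control + Veh and -1.82 ± 0.34 for HFpEF + TYA-018 against HFpEF + Veh. It was 1.44 to 1.67 and -0.99 to -0.74 in the fits on TPM, and 1.92 and -1.35 with effective lengths as an offset.

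Slc4a1, which encodes band 3, the chloride and bicarbonate exchanger of the red cell membrane, was the least abundant member and, on counts, had the largest fold changes of the 8. Its estimated counts were 71, 33, 34 and 78 in C1 to C4, 596, 289, 804 and 182 in V1 to V4, and 122, 46, 47 and 56 in T1 to T4. These correspond to means of 0.793 CPM, 7.62 CPM and 0.879 CPM in the 3 groups. Here V3 and not V1 was highest. The log2FC was 3.26 ± 0.44 and -3.11 ± 0.43 in the first 2 comparisons and 0.15 ± 0.42 for HFpEF + TYA-018 against Control + Veh, where it turned to -0.10 without T1. On TPM, where its group means were 0.0289, 0.267 and 0.0466 and thus under the pseudocount of 1, the first value was 0.29 with that pseudocount, 1.36 with a pseudocount of 0.1 and 0.66 on TPM rescaled without mitochondrial genes, below those of the 4 globins and Alas2 in each of these fits.

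Alas1, the first enzyme of heme synthesis outside red cells, behaved differently from its erythroid counterpart. It was at 54.6, 64.9, 89.7 and 85.5 CPM in C1 to C4, at 85.0, 103, 116 and 114 CPM in V1 to V4, and at 99.5, 103, 85.3 and 77.4 CPM in T1 to T4. All 3 groups overlapped, and V1, the library highest in globin, was the lowest HFpEF + Veh library for Alas1. The log2FC was 0.50 ± 0.16 for HFpEF + Veh against Control + Veh and -0.20 ± 0.16 for HFpEF + TYA-018 against HFpEF + Veh. The second of these had the opposite sign on TPM, where the log2 difference was 0.36 with a pseudocount of 1 and 0.38 with a pseudocount of 0.1. The median of all genes moved by 0.17 and 0.34 in those fits, which left 0.19 and 0.03 for Alas1.

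Fech, the last enzyme, was at 39.9, 22.5, 34.9 and 37.2 CPM in C1 to C4, at 54.2, 39.3, 56.2 and 44.0 CPM in V1 to V4 and at 42.6, 41.4, 42.1 and 47.1 CPM in T1 to T4. The HFpEF + Veh libraries overlapped with both other groups, V2 lying just below C1. The log2FC was 0.53 ± 0.16, -0.16 ± 0.16 and 0.36 ± 0.16 in the 3 comparisons, and the second was 0.15 on TPM with a pseudocount of 1, which is -0.02 relative to all genes.

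Per length, on the TPM scale, Alas1 was at 12.8 ± 2.31, 15.4 ± 3.24 and 20.7 ± 7.77 TPM in C1 to C4, then V1 to V4, then T1 to T4, and Alas2 at 8.90 ± 1.88, 29.4 ± 17.2 and 15.0 ± 2.21 TPM (SD, n = 4). The level of Alas2 per Alas1 was between 0.423 and 0.985 in Control + Veh, so the housekeeping form was the larger in all 4. In HFpEF + Veh it was 4.23, 1.30, 1.84 and 0.776 in V1 to V4, and in HFpEF + TYA-018 it was between 0.513 and 1.22. Per length the erythroid form exceeded the housekeeping form in V1, V2, V3 and T4, and in CPM in V1 and V3. These ratios rest on deposited effective lengths that ran from 674 to 1537 bases between libraries for Alas2 and from 1630 to 2278 bases for Alas1. By group means of TPM in Control + Veh, the members ran from Hba-a1 (1395) through Hbb-bs (429), Hba-a2 (351), Alas1, Alas2 and Fech (8.51). The libraries overlapped for Hbb-bs (301 to 543) and Hba-a2 (275 to 442), and for Alas2 (6.27 to 10.3) and Fech (5.34 to 10.7). Hbb-bt was left out of this order for the lengths given above, and Slc4a1 because its deposited effective lengths, from 6939 to 11232 bases, exceed its longest annotated transcript of 4545 bases.

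Of the 8 members, 6 had HFpEF + Veh libraries that did not overlap with Control + Veh, where 23.5% of the 14333 tested genes did not. The same 6 (all but Alas1 and Fech) did not overlap between HFpEF + TYA-018 and HFpEF + Veh, against 25.1% of tested genes, although Hbb-bt and Alas2 overlapped there on TPM. Between HFpEF + TYA-018 and Control + Veh 3 of 8 did not overlap (Hba-a1, Hbb-bt and Fech), against 14.8%, and on TPM neither did Hba-a2, Hbb-bs and Alas2. These contrasts are those on which the genes were chosen, so nothing is read from the counts. Leaving out V1, the library with most globin, brought the log2FC of HFpEF + Veh against Control + Veh to between 1.43 (Hba-a2) and 1.97 (Alas2) for the globins and Alas2, the lowest value among the fits without 1 library.

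The members varied within groups as well as between them. In HFpEF + Veh the highest library exceeded the lowest 2.82-fold for Hba-a1, 3.45-fold for Alas2 and 3.87-fold for Slc4a1, but only 1.36-fold for Alas1 and 1.43-fold for Fech. With the group means taken out of log2 CPM, Pearson's r over the 12 libraries was between 0.836 and 0.987 for the 6 pairs of globins and between 0.837 and 0.947 for Alas2 with each globin. It was between 0.356 and 0.727 for Slc4a1, between 0.084 and 0.364 for Fech, and between -0.656 and -0.507 for Alas1 with each globin. These coefficients are a description over few libraries that share their total count, with no test. They place Alas2 with the globins, Slc4a1 at some distance and Alas1 on the other side.

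Ratios within a library do not depend on how libraries were scaled. Alas2 counts per 100000 globin counts were 1149 ± 172 in C1 to C4, 1437 ± 251 in V1 to V4 and 1168 ± 47.5 in T1 to T4 (SD, n = 4), and the first 2 groups overlapped. For Slc4a1 the ratio was 43.4, 23.3, 34.9 and 58.5 in C1 to C4, 73.6, 82.3, 157 and 66.9 in V1 to V4, and 57.1, 22.6, 26.3 and 23.6 in T1 to T4. All 4 HFpEF + Veh libraries held more Slc4a1 per globin than any other library. Bpgm, the gene of the mutase that makes the hemoglobin ligand 2,3-bisphosphoglycerate, went the other way, with 1058 ± 142, 742 ± 109 and 823 ± 105, Control + Veh lying above HFpEF + Veh without overlap. The red cell transcripts therefore did not keep one ratio to globin across the groups. How much of each transcript came from red cells and how much from the ventricle was not tested.

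**Figure D2:**
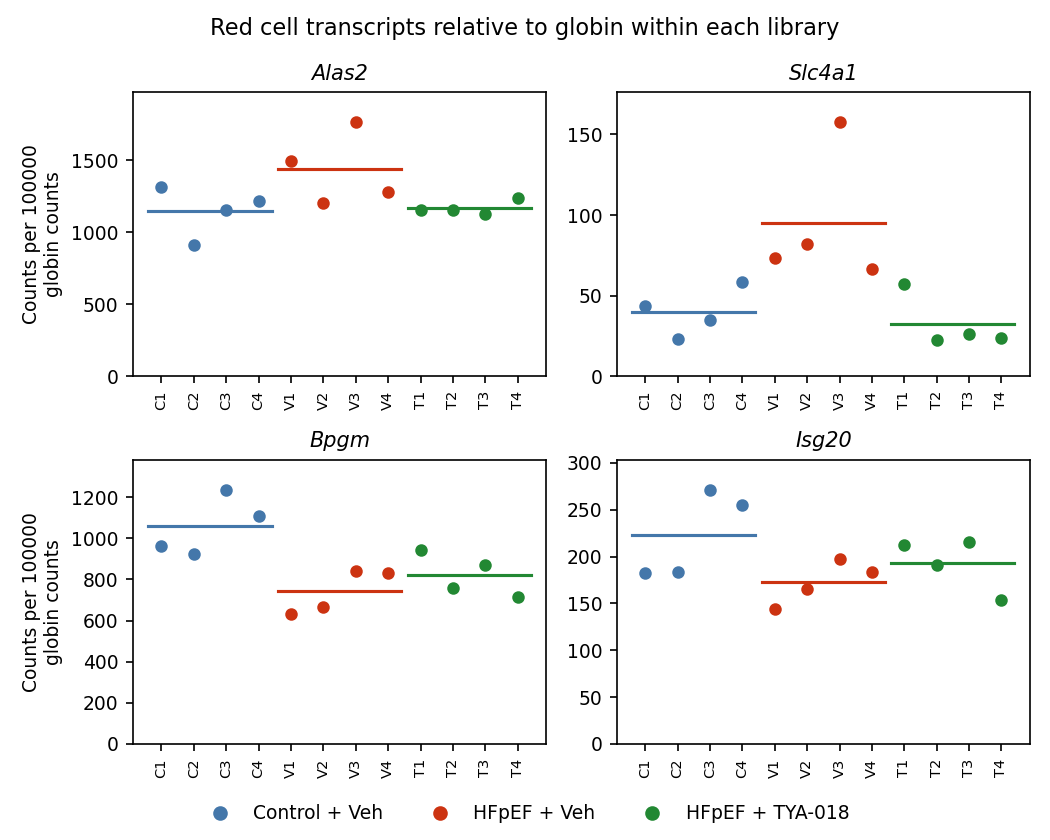
Estimated counts of 4 red cell genes per 100000 globin counts in each library, with a line at the mean of each group of 4. The ratio of Slc4a1 is higher in all HFpEF + Veh libraries than in any other library, and that of Bpgm is higher in all Control + Veh than in all HFpEF + Veh libraries.

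Genes of the red cell that were not members were tested in 1 edgeR quasi-likelihood fit over all genes, with Benjamini-Hochberg adjusted p under 0.05 as the call. This list and the other gene lists were chosen with earlier results of these data known, so shares called are a description. Of 49 listed genes, 48 were matched and 32 passed the filter on low counts. In HFpEF + Veh against Control + Veh, 13 were called higher and 2 lower, or 46.9% of the 32, while 21.2% of all tested genes were called (10.9% higher, 10.3% lower). In HFpEF + TYA-018 against HFpEF + Veh, 12 were called lower and 5 higher, or 53.1%, against 19.3% of all genes (10.4% lower, 8.93% higher). In HFpEF + TYA-018 against Control + Veh, 2 were called higher, or 6.25%, against 5.86% (3.12% higher, 2.74% lower). The median log2FC of the 32 genes was 0.19, -0.12 and 0.12 in the 3 comparisons, beside -0.01, 0.00 and -0.02 over all genes tested. Nfe2 alone among the 32 passed the filter only through the HFpEF + Veh libraries, and it was not called.

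Among genes of the red cell membrane, 3 of 8 tested were called in each of the first 2 comparisons (37.5%, against 21.2% and 19.3% of all genes). Epb41, the gene of cytoskeletal protein 4.1, which many tissues express, rose by 0.38 ± 0.10 on the log2 scale and then fell by 0.64 ± 0.10. Tmcc2 rose by 0.32 ± 0.06 and was not called in the second comparison. The spectrin gene Sptb, also used by muscle, went the other way, at -0.26 ± 0.08 (a call lost without any of 5 libraries) and 0.32 ± 0.08. The blood group gene Rhd, at 0.48 ± 0.14, was called in the second comparison and not in the first, a call lost without any of 6 libraries, while ankyrin (Ank1) and glycophorin C (Gypc) were called in neither.

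Of the 16 membrane genes, 8 did not pass the count filter, and their raw counts are given instead of a test. Epb42, which encodes protein 4.2, the partner of band 3, had 7, 3, 2 and 3 counts in C1 to C4, 71, 38, 83 and 9 in V1 to V4, and 5, 3, 1 and 0 in T1 to T4. Every HFpEF + Veh library held more than any other. The Kell blood group gene Kel had 13, 5, 13 and 3 counts in V1 to V4 and at most 2 elsewhere, and Tspo2 had 48, 9, 40 and 9 in V1 to V4 and at most 9 elsewhere. For Rhag, the counts were 3, 0, 3 and 0 in V1 to V4 and 0 in the other 8 libraries, so that its presence was barely detectable at this depth, and Add2 had no count at all. Ermap, Icam4 and Cldn13 overlapped between groups. Ermap had 5 to 8 counts in C1 to C4, 3 to 14 in V1 to V4 and 2 to 13 in T1 to T4. Icam4 had 0, 0, 12 and 17.3 in C1 to C4, 0, 13, 3 and 0 in V1 to V4, and at most 5.52 in T1 to T4. Cldn13 had 4 in C1, 1, 1 and 5 in V1 to V3, and 0 elsewhere.

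Genes of the red cell cytosol gave 7 higher calls of 13 tested in HFpEF + Veh, and 7 lower and 2 higher calls of 13 with TYA-018. These were 53.8% and 69.2% of the 13, against 21.2% and 19.3% of all genes called in either direction. Bpgm was at 19.0 to 21.6 CPM in C1 to C4, at 87.9, 39.4, 65.1 and 39.3 CPM in V1 to V4 and at 21.4 to 25.2 CPM in T1 to T4, with a log2FC of 1.48 ± 0.22 and -1.32 ± 0.21 (edgeR adjusted p = 0.0011 and 0.00263). V1 was highest and V4 lowest, and the HFpEF + Veh libraries stood clear of the others.

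The remaining cytosol genes called in both comparisons had smaller changes or lower levels. The log2FC was 2.51 ± 0.46 and -2.84 ± 0.47 for the erythroid ubiquitin ligase gene Trim10, 2.10 ± 0.32 and -1.72 ± 0.31 for Tent5c, 1.63 ± 0.22 and -1.31 ± 0.22 for the exonuclease gene Isg20, 1.15 ± 0.27 and -1.03 ± 0.27 for carbonic anhydrase 2 (Car2), 0.88 ± 0.15 and -0.70 ± 0.15 for the ubiquitin ligase gene Mkrn1, and 0.36 ± 0.08 and -0.33 ± 0.08 for the mitophagy receptor gene Bnip3l. The call on Car2 in the second comparison was lost without V1, V3 or T1. Peroxiredoxin 2 (Prdx2), an abundant red cell protein that other cells also make, was called higher with TYA-018 (0.39 ± 0.10), a call lost without T1 or T2, and was not called in HFpEF + Veh. Ubac1 was called higher with TYA-018 against both other groups, at 0.21 ± 0.05 and 0.28 ± 0.05, but at -0.15 with effective lengths in the first of these.

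Among receptors and transcription factors, the transferrin receptor gene Tfrc, which brings in iron, was at 9.93, 9.84, 11.1 and 9.76 CPM in C1 to C4, at 24.4, 31.4, 45.8 and 30.97 CPM in V1 to V4, and at 19.5, 23.2, 18.6 and 14.7 CPM in T1 to T4. Its 3 groups did not overlap, and V1 was the lowest of the HFpEF + Veh libraries, unlike for globin. The log2FC was 1.71 ± 0.18, -0.80 ± 0.17 and 0.91 ± 0.17 (edgeR adjusted p = 0.000412, 0.0087 and 0.0146). E2f2, a cell cycle factor of late erythroid cells, was at 2.25 ± 0.40 and -1.65 ± 0.39, from means of 0.380 CPM, 1.82 CPM and 0.577 CPM. Zfpm1, the cofactor of GATA1, was at 0.34 ± 0.06 and -0.37 ± 0.06. Tal1 was at 0.30 ± 0.08 and -0.26 ± 0.08, but its sign turned with effective lengths (-0.14 and 0.14) and on TPM. Ldb1 was lower at -0.20 ± 0.06 in the first comparison and Bcl11a higher at 0.59 ± 0.16 in the second, calls lost without any of 6 and 5 libraries.

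Of the erythroid transcription factors, Gata1, Klf1, Gfi1b and Myb were nearly absent. By contrast, Tal1 had 351 to 498 counts per library and Lmo2 had 761 to 1287. Gata1 had 0 to 4 counts in Control + Veh, 2, 0, 1 and 7 in V1 to V4 and 0 to 3 in HFpEF + TYA-018. Klf1 had 1, 1, 0 and 1 counts in V1 to V4, against 2 to 5 in Control + Veh and 2 to 12 in HFpEF + TYA-018. Gfi1b had at most 4 and Myb at most 12 counts in any library. Every HFpEF + Veh library thus held less Klf1 than any other, opposite to globin. These genes did not pass the count filter. In the fit without a filter Klf1 was at -1.70 and 2.31 in the first 2 comparisons (edgeR adjusted p = 0.25 and 0.117) and was called in neither. Gata1 and Myb overlapped between groups, and Gfi1b had 1 count in V3 and V4, as in C2, C4 and T4. Of the embryonic globins, Hbb-bh1, Hbb-bh2, Hbb-bh0 and Hba-x had 0 counts in all 12 libraries, which allows up to 3 counts per library, or 0.0357 to 0.049 CPM of the total. Hbb-y had 2 counts in C1 and none elsewhere. Such limits cover counting error only.

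**Figure D3:**
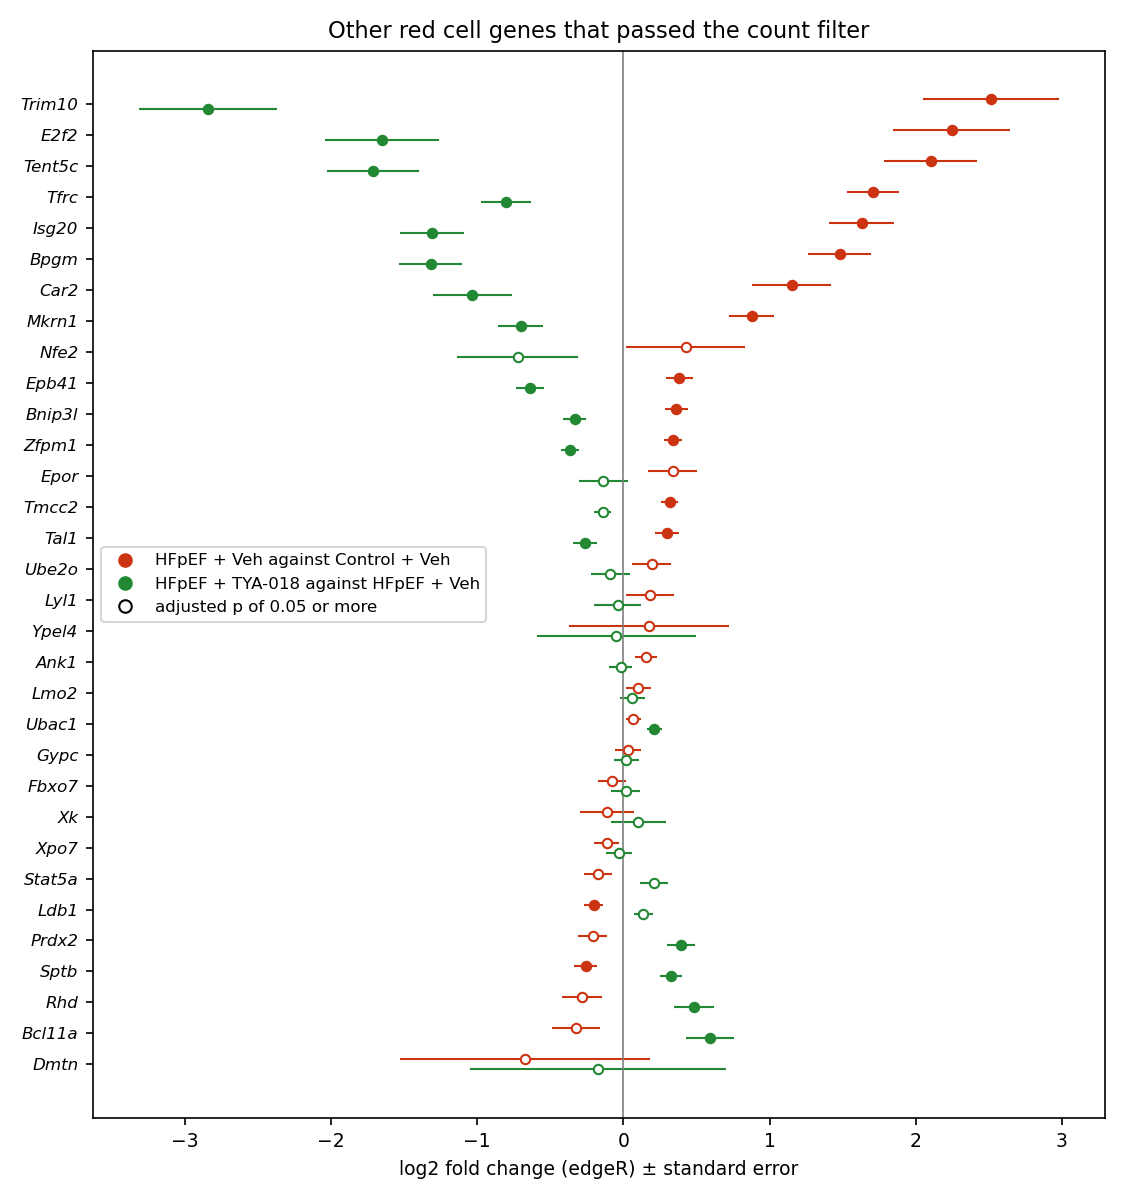
Log2 fold change ± standard error (edgeR) of the 32 red cell genes outside the 8 members that passed the count filter, in 2 comparisons that share the HFpEF + Veh libraries. Filled points have an adjusted p under 0.05, and Trim10, E2f2 and Tent5c lie farthest from 0.

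Between the first and the last enzyme of heme synthesis, 5 others were followed, and these did not move as Alas2 did. In HFpEF + Veh against Control + Veh, 3 of 5 were called lower and none higher: Alad (-0.42 ± 0.11), Urod (-0.38 ± 0.08) and Ppox (-0.37 ± 0.12). In HFpEF + TYA-018 against HFpEF + Veh, 3 of 5 were called higher and none lower: Alad (0.34 ± 0.11), Uros (0.22 ± 0.07) and Urod (0.39 ± 0.08). Each count was 60% of the 5, against 21.2% and 19.3% of all genes. The median over the 5 was -0.37 and 0.33, beside -0.01 and 0.00 over all genes. Urod was at 38.0, 49.1, 45.3 and 46.3 CPM in C1 to C4, at 34.5, 34.4, 34.1 and 34.5 CPM in V1 to V4, and at 49.5, 45.7, 44.5 and 41.0 CPM in T1 to T4. Its HFpEF + Veh libraries all lay below the others (edgeR adjusted p = 0.00597 and 0.00596), although with effective lengths the second value was -0.03.

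The call on Alad with TYA-018 was lost without any 1 of 8 libraries, that on Ppox in HFpEF + Veh without any of 6 and that on Uros without any of 6. The call on Alad in HFpEF + Veh was lost without V4. Cpox was called in no comparison.

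**Figure D4:**
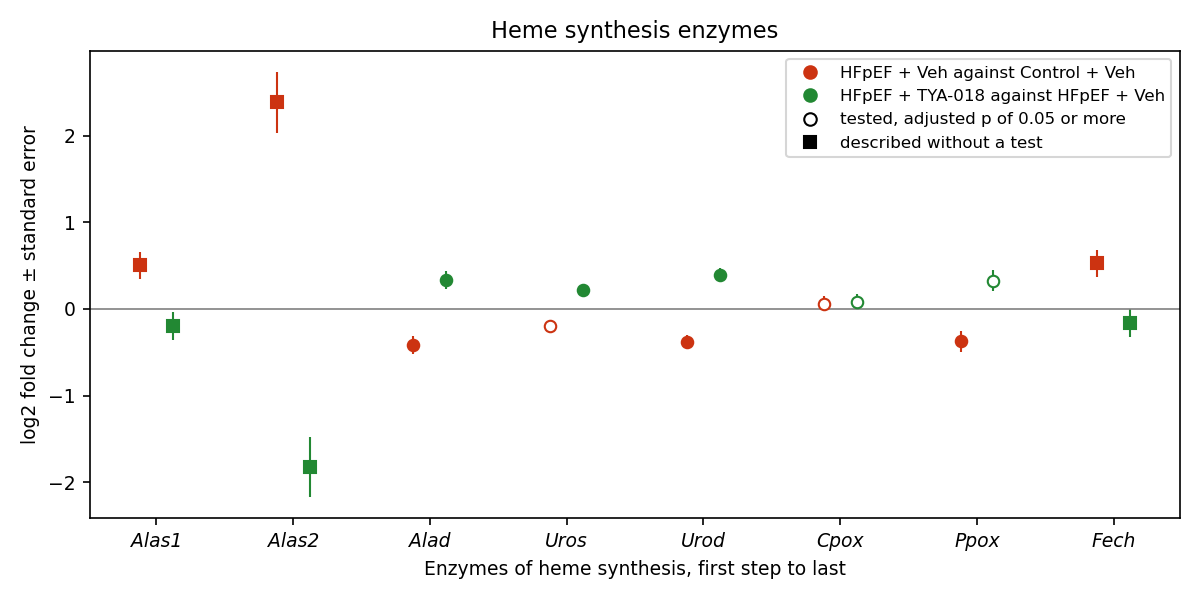
Log2 fold change ± standard error (edgeR) of the enzymes of heme synthesis in the order of the pathway, in 2 comparisons that share the HFpEF + Veh libraries. Squares are members, described without a test, and circles are the 5 other enzymes, filled where the adjusted p is under 0.05. Alas2 reaches 2.38 and -1.82, while Alad and Urod lie on the opposite side of 0 from Alas2 in both comparisons.

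Carriers and partners of heme gave 2 calls of 20 (10.0%) in HFpEF + Veh against Control + Veh, below the 21.2% of all genes. Slc25a38, which imports glycine into mitochondria for the first step, was lower at -0.34 ± 0.08 (edgeR adjusted p = 0.00899), and Fam210b, an erythroid ferrochelatase partner, was higher at 0.26 ± 0.07, a call lost without C3, C4 or V4. In HFpEF + TYA-018 against HFpEF + Veh, 5 were called higher and 1 lower of 20 (30.0%, against 19.3%). Slc25a38 was higher at 0.44 ± 0.08, the porphyrin transporter gene Abcb6 at 0.36 ± 0.08, Tmem14c at 0.30 ± 0.08, Clpx at 0.25 ± 0.08 and Abcb10 at 0.20 ± 0.06, while the porphyrin exporter gene Abcg2 was lower at -0.38 ± 0.08. The calls on Clpx, Abcb10 and Tmem14c were each lost without any of 5 or more libraries, and Abcg2 was at 0.08 on TPM. The mitoferrin genes Slc25a37 and Slc25a28 and the heme exporter gene Flvcr1 were called in neither comparison.

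Genes of heme scavenging and breakdown gave 3 lower calls of 11 in HFpEF + Veh (27.3%, against 21.2% of all genes). With TYA-018 they gave 2 lower calls of 11 (18.2%, against 19.3%). Hemopexin (Hpx), which binds free heme, was at 2.58, 1.52, 3.26 and 3.15 CPM in C1 to C4, at 0.499, 0.0337, 0.197 and 0.434 CPM in V1 to V4, and at 0.308, 0.508, 2.83 and 1.37 CPM in T1 to T4. Its log2FC was -3.17 ± 0.75 (edgeR adjusted p = 0.0117) in HFpEF + Veh, and the HFpEF + TYA-018 libraries spread over both other groups. Haptoglobin (Hp), which binds free hemoglobin, was at -1.996 ± 0.484 (edgeR adjusted p = 0.0134), and biliverdin reductase A (Blvra) at -0.40 ± 0.10. Heme oxygenase 1 (Hmox1), which opens the heme ring, was at 0.06 ± 0.26 and 0.15 ± 0.26 and was called in no comparison. With TYA-018, Cd163, the macrophage receptor for hemoglobin bound to haptoglobin, was lower at -1.20 ± 0.23 (edgeR adjusted p = 0.00492), and the hemopexin receptor gene Lrp1 at -0.42 ± 0.13, a call lost without any of 7 libraries.

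Known regulators of Alas1 gave 2 calls of 9 in HFpEF + Veh (22.2%, against 21.2% of all genes). Foxo1 was higher at 0.39 ± 0.09 and Nr1d2, a clock repressor, lower at -0.40 ± 0.08. Nr1d1, the clock repressor that acts on Alas1, was at 80.1 CPM in V1 to V4 and 50.01 CPM in T1 to T4 on average and lower at -0.68 ± 0.16 (edgeR adjusted p = 0.0138). It was the single call of 9 in the second comparison (11.1%, against 19.3% of all genes). The coactivator gene Ppargc1a was at 0.34 ± 0.16 and -0.12 ± 0.16 and was called in no comparison.

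Over all 45 heme genes outside the members, 10 were called in HFpEF + Veh against Control + Veh (2 higher, 8 lower, 22.2%, against 21.2% of all genes), 12 in HFpEF + TYA-018 against HFpEF + Veh (8 higher, 4 lower, 26.7%, against 19.3%) and 2 in HFpEF + TYA-018 against Control + Veh (1 higher, 1 lower, 4.44%, against 5.86%). The second count was 6 without V4 or T2 and 7 without T1, and the third was 1 without C4, T1 or T2. Over all tested genes the second comparison gave 1927, 1631 and 1485 calls without V4, T2 and T1, against 2767 with all libraries. The third gave 325, 403 and 308 without C4, T1 and T2, against 840. The share of higher calls moved with the scale: in the second comparison 12 were higher and none lower on TPM with a pseudocount of 1, and 1 was higher and 2 lower with effective lengths. For the red cell genes that comparison gave 5 higher and 1 lower on TPM and 5 lower with effective lengths, and HFpEF + Veh against Control + Veh gave 1 higher on TPM and 11 higher with effective lengths. Calls over all tested genes were 2474 on that TPM scale and 1217 with effective lengths in HFpEF + TYA-018 against HFpEF + Veh. They were 147 and 1445 in HFpEF + Veh against Control + Veh, where the main fit gave 3033.

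Other cells of the blood were followed through marker lists. The 12 platelet genes summed to 5.07 to 10.1 CPM in C1 to C4, 8.94 to 10.8 CPM in V1 to V4 and 7.84 to 9.92 CPM in T1 to T4, and 1 of 9 tested (Pf4, 0.49 ± 0.14) was called, in HFpEF + Veh and not without C3, V2 or V3. Pf4 weighed most in these platelet sums, with 230 to 431 counts per library, while no other of the 12 exceeded 140. The 13 neutrophil genes summed to 9.05 to 18.6 CPM, 7.75 to 16.8 CPM and 7.36 to 16.8 CPM, and 2 of 7 tested were called lower in HFpEF + Veh, S100a9 (-1.63 ± 0.47) and Csf3r (-1.27 ± 0.37). Lcn2, which other cells also make, supplied 4.34 to 8.25 CPM, 5.47 to 12.6 CPM and 4.24 to 9.87 CPM of these sums and was at 0.67 ± 0.31 in HFpEF + Veh (edgeR adjusted p = 0.146), opposite in sign to S100a8, S100a9, Retnlg, Csf3r and Cxcr2. The 10 B cell genes summed to 10.1 to 13.5 CPM, 5.90 to 10.7 CPM and 7.62 to 10.1 CPM, with Cd79a (-0.81 ± 0.23) and Ighd (-0.95 ± 0.26) called lower of 9 tested in HFpEF + Veh. The calls on S100a9, Csf3r and Cd79a were each lost without any of 5 libraries and that on Ighd without C2 or V3. Calls in HFpEF + Veh were 11.1% of the tested platelet, 28.6% of the neutrophil and 22.2% of the B cell genes, against 21.2% of all genes. The 11 T cell genes summed to 3.18 to 5.93 CPM, 2.14 to 4.04 CPM and 2.55 to 3.30 CPM, and of 9 tested Cd247 came nearest to a call in HFpEF + Veh, at -0.90 ± 0.33 (edgeR adjusted p = 0.0672). The defining markers Gp6, Ly6g, Camp, Elane, Mpo and Trac had fewer than 10 counts in every library. These sums overlapped between all 3 groups, while globin did not overlap between HFpEF + Veh (4724 to 13930 CPM) and the rest (1535 to 2288 CPM in C1 to C4, 2270 to 3528 CPM in T1 to T4). The part of residual blood in the globin values was not tested. The levels of the other globin of muscle, myoglobin (Mb), were 2581, 1984 and 3594 CPM on average, with 0.86 ± 0.17 (edgeR adjusted p = 0.0059) for HFpEF + TYA-018 against HFpEF + Veh, opposite to the members.

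**Figure D5:**
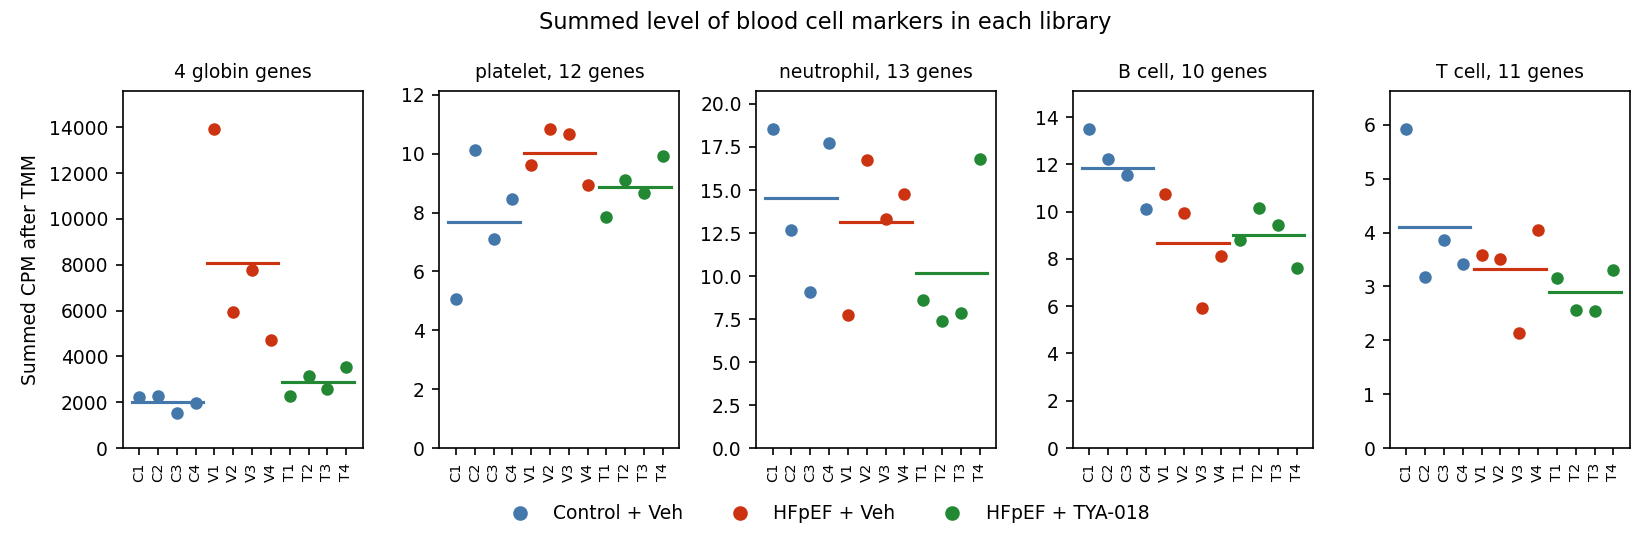
Summed CPM of the 4 globin genes and of marker lists of 4 other kinds of blood cell in each library, with a line at the mean of each group of 4. Globin is higher in every HFpEF + Veh library than in any other, while the platelet, neutrophil, B cell and T cell sums overlap between groups.

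The genes most like globin were sought over all tested genes with a mean of at least 1 CPM, by Pearson's r of log2 CPM with the mean of the 4 globins, group means removed, over 12 libraries. The 10 highest were Ube2l6 (0.961), Mkrn1 (0.951), Bpgm (0.921), Pls3 (0.917), Cd24a (0.911), Tent5c (0.906), Nutf2-ps1 (0.905), Stim2 (0.901), Ccndbp1 (0.899) and Osbp2 (0.888). Mkrn1, Bpgm and Tent5c were on the red cell list already. Ube2l6, a ubiquitin-conjugating enzyme gene, was at 10.2 CPM, 33.3 CPM and 13.8 CPM in the 3 groups, with V1 at 51.0 CPM and V4 at 20.5 CPM. Cd24a, a surface antigen gene, was at 3.02 CPM, 8.75 CPM and 2.67 CPM. Osbp2 went the other way between groups, being lower in V1 to V4 (mean 10.3 CPM) than in C1 to C4 (mean 15.4 CPM) although it followed globin within groups. Nutf2-ps1, Stim2 and Ccndbp1 were called in neither of the first 2 comparisons. Nutf2-ps1 was at 9.78 CPM in V1 and at 0, 0.106 and 0 CPM in V2 to V4. Nutf2-ps1 is annotated as a pseudogene whose reads may belong to its parent, and it was listed at 0 in 3 libraries. With the group means left in, r was -0.65 for Osbp2, 0.07 for Nutf2-ps1 and between 0.72 and 0.99 for the other 8.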

How the data were processed

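Poly(A) RNA of 12 mouse left ventricles was sequenced, 1 library per mouse. Per the published methods, the authors trimmed reads with fastp, quantified them with Salmon (1.6.0 in the submitters' processing notes) on GENCODE mouse transcripts and summed to genes with tximport. They deposited estimated counts per gene without normalization, TPM per gene, and effective gene lengths in bases. The notes name the human build hg38, whereas the deposited symbols are mouse. No column of the tables was pooled.

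Estimated counts, of which 74.4% to 77.6% per library were whole, were rounded to whole numbers, filtered with filterByExpr (14333 genes, 99.98% of counts), scaled by TMM and tested with edgeR 4.0.16 (quasi-likelihood, R 4.3.3, all 12 libraries, 9 residual degrees of freedom, two-sided, Benjamini-Hochberg over all tested genes, threshold 0.05). The script was tested on simulated data. Totals of 61177646 to 83928922 estimated counts set the precision. Each library was from another animal, and p-values measure only the spread between these libraries. Alternatives were median-of-ratios scaling, no filter, DESeq2 1.42.0, effective lengths as an offset, limma 3.58.1 on log2(TPM + 1) and log2(TPM + 0.1) and on TPM rescaled without mitochondrial genes, totals without mitochondrial and globin genes, fits of 2 groups alone and each library left out.

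The members and gene lists were chosen with earlier results of these data known. Named genes were the 8 members, list genes called in a comparison, defining markers at 0 or highest, and the 10 genes with a mean of at least 1 CPM most correlated with globin. Of 171 listed symbols 170 were matched, 6 by an older symbol, and Ahsp was not analysed here. A few further genes of these pathways are not reported here.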

Additional observations from a re-analysis of the deposited data

Results flagged for a closer look

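In groups of 4 libraries, a library was singled out where its gap to the nearest other library, divided by the range of the group, exceeded Dixon's 95% critical value. This held for 16 of 213 groups screened, and chance gives about 1 in 20.

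Among the globin measures, V4 had the lowest beta to alpha ratio of HFpEF + Veh (0.485, nearest 0.552, gap share 0.872) and C1 the lowest Hbb-bs share of beta globin in Control + Veh (77.7%, nearest 80.5%, gap share 0.923). Slc4a1 per 100000 globin counts was highest in V3 (157, nearest 82.3, gap share 0.83) and, in HFpEF + TYA-018, in T1 (57.1, nearest 26.3, gap share 0.894).

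Among red cell genes in Control + Veh, C3 was low for Bpgm (19.0 CPM, nearest 21.1, gap share 0.842) and high for Tfrc (11.1 CPM, nearest 9.93, gap share 0.872), and C4 was high for Car2 (2.86 CPM, nearest 2.50, gap share 0.89) and Isg20 (4.96 CPM, nearest 4.20, gap share 0.839). In HFpEF + Veh, V1 was high for Bcl11a (1.63 CPM, nearest 1.26, gap share 0.855) and V2 for Rhd (4.18 CPM, nearest 3.25, gap share 0.942).

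Among heme and marker genes, C4 was high for Nr1d2 (100.5 CPM, nearest 89.5, gap share 0.902), T4 for Fam210b (8.11 CPM, nearest 7.49, gap share 0.869), T1 for Clpx (43.3 CPM, nearest 40.6, gap share 0.854), V2 for S100a9 (1.43 CPM, nearest 0.625, gap share 0.912) and T4 for the neutrophil sum (16.8 CPM, nearest 8.63, gap share 0.865). T1 was low for Pln (1595 CPM, nearest 2015, gap share 0.971).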

How the results depend on the processing

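No paired analysis was possible because the animal numbers differ in every group. The 15 red cell calls of HFpEF + Veh against Control + Veh became 1, 1 and 3 on log2(TPM + 1), log2(TPM + 0.1) and TPM rescaled without mitochondrial genes, and 13 to 16 without 1 library, while the 10 heme calls became 1, 3 and 3, and 4 with effective lengths (8 to 12 without 1 library). For HFpEF + TYA-018 against HFpEF + Veh the 17 red cell calls became 6, 8 and 1 on the 3 TPM scales and 5 with effective lengths (13 to 17 without 1 library), and the 12 heme calls 2 on rescaled TPM and 3 with effective lengths (6 to 12). Against Control + Veh the 2 red cell and 2 heme calls became 0 on each TPM scale and with effective lengths, and the heme calls 5 with DESeq2 and 1 to 3 without 1 library. Calls over all genes moved too. In HFpEF + Veh against Control + Veh they went from 3033 to 147, 300 and 443 on the 3 TPM scales and 1445 with effective lengths. In HFpEF + TYA-018 against HFpEF + Veh they went from 2767 to 2474, 2842 and 947, and to 1217. In HFpEF + TYA-018 against Control + Veh they went from 840 to 3, 10 and 46, to 203, and to 1497 with DESeq2. On the 3 TPM scales in the same order, Alas2 was at 1.44, 1.53 and 1.67 in HFpEF + Veh and -0.74, -0.76 and -0.99 with TYA-018, and Slc4a1 at 0.29, 1.36 and 0.66, then -0.26, -1.20 and -0.62. Alas1 was at 0.25 in HFpEF + Veh on log2(TPM + 1). With TYA-018 it turned to 0.36, 0.38 and 0.13 against HFpEF + Veh, and was at 0.61 and 0.64 against Control + Veh on the first 2 scales. On those 2 scales Fech turned to 0.15 and 0.16 and Hbb-bt was at -0.81 in both. Slc4a1 against Control + Veh ran from -0.10 (without T1) to 0.38 without 1 library. Tal1 turned to -0.14 with effective lengths and -0.10, -0.24 and -0.0776 on TPM in HFpEF + Veh, and to 0.14, 0.20, 0.56 and 0.22 with TYA-018. Also with TYA-018, Urod was at -0.0345 and Ubac1 at -0.15 with effective lengths, and Abcg2 at 0.0790 and 0.0788 on the first 2 TPM scales. The cause was not tested. Of 78 named calls, DESeq2 kept 78, median-of-ratios scaling 75, totals without mitochondrial and globin genes 76, fits of 2 groups alone 67, no filter 64, effective lengths 35, and the 3 TPM scales 17, 20 and 16. Low counts limit the erythroid transcription factors Gata1, Klf1, Gfi1b and Myb, as well as 8 membrane genes.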
